A study of Mus musculus with 5 samples.

Results

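C-type natriuretic peptide (CNP) and the natriuretic peptide receptors were followed through the cells of the juvenile mouse ovary. The 4 genes, Nppc, Npr1, Npr2 and Npr3, were chosen by symbol from the 31053 genes listed in the count tables. The study sequenced single ovarian cells of untreated C57BL6/J mice at 2, 3, 4, 5 and 6 wk of age, an interval that spans puberty, with 1 library per age. Live cells were sorted from trypsin-dissociated ovaries and captured with 10x Genomics 3′ chemistry, so each count is a unique molecular identifier (UMI), a tag that marks 1 captured RNA molecule. The labels do not say how many mice were pooled per library. The labels give no mutation, transgene or treatment, and the groups differ in age.

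CNP is the peptide hormone encoded by Nppc. In growing follicles it is known as a product of mural granulosa cells, the layers that line the follicle wall, and it acts on cumulus granulosa cells, which surround the oocyte. Its receptor NPR2 (guanylyl cyclase B) makes cGMP when CNP binds. The cGMP passes through gap junctions into the oocyte, where it inhibits the phosphodiesterase PDE3A and holds meiosis in arrest until the ovulatory surge of luteinizing hormone. NPR1 (guanylyl cyclase A) is the receptor of the atrial and B-type peptides, and NPR3, which lacks a cyclase domain, binds all natriuretic peptides and clears them.

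In the GRCm38 build with GENCODE annotation, Nppc (ENSMUSG00000026241) lies on chromosome 1 from 86666291 to 86670571 on the minus strand, and its longest coding sequence has 126 codons. The mature peptide is the end of that precursor. The coding bases of its last 22 codons are shown because they are the ligand that the receptor counts refer to, with the 2 cysteine codons in capitals. These lie in exon 2 of 3, at chr1:86669667-86669732 on the minus strand.
Nppc, last 22 codons: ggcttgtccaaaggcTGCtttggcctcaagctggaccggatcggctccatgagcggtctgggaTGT
The cysteines, 17 codons from the first to the last inclusive, close the ring by which the peptide binds its receptors. Npr1 (ENSMUSG00000027931) lies on chromosome 3 from 90450591 to 90465866 on the minus strand, with 22 exons and 1057 codons. Npr2 (ENSMUSG00000028469) is on chromosome 4 from 43631935 to 43651244 on the plus strand, with 22 exons and 1047 codons. Npr3 (ENSMUSG00000022206) is on chromosome 15 from 11839896 to 11907287 on the minus strand. Its 8 exons hold 536 codons.

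The 5 libraries held between 7779 and 11077 cells and between 93438618 and 144609431 UMIs, and 273 of 47890 cell barcodes occurred in more than 1 library. The 2, 3 and 4 wk libraries were counted with Cell Ranger 3.1.0 and the 5 and 6 wk libraries with Cell Ranger 6.0.1, so the program version and age cannot be told apart across that step. Cells were clustered after integration without the 4 genes and without the other genes of their pathway, and clusters were named from marker lists. Granulosa-like cells (18632 cells) formed 17 clusters, of which 3 were antral-like, 2 preantral-like, 4 remodeling-like, 1 primordial-like, 4 mitotic and 3 unnamed. Remodeling-like clusters were named from markers of follicles that regress and reshape their wall, which does not show that each cell came from such a follicle. Clusters were drawn on the same cells and on genes that vary with the 4 genes, so a p-value between clusters says how repeatably a difference recurred over the 5 libraries, and nothing in the labels says that libraries are replicates of more than their own age. Levels are UMIs of the gene per 1000000 UMIs of the group (CPM). Free RNA in droplets gives some UMIs in every cell type, and hematopoietic-like cells served as a rough reference for that background. This reference is not a floor for every gene, and its cells were shallow (median 6699 UMIs).

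Nppc was found mainly in granulosa-like cells. Of its 19977 UMIs, 88.4% fell in granulosa-like cells, which held 51.3% of all UMIs, and 2.02% fell in stromal-like cells, which held 27.2%. The level in granulosa-like cells was 24.0, 26.0, 26.8, 61.0 and 134.5 CPM at 2, 3, 4, 5 and 6 wk, against 2.36, 1.80, 2.11, 4.58 and 2.19 CPM in stromal-like cells. Antral-like cells were 299 of 3120 granulosa-like cells at 2 wk and 945 of 3871 at 6 wk. No library overlapped between the lineages. The log2 fold change of granulosa-like over stromal-like cells was 3.97 ± 0.40 (SE, n = 5 libraries, edgeR adjusted p = 0.000175), in a comparison where 68.1% of 16283 genes passed the test and 35.2% were higher in granulosa-like cells. The summed level of the 7 granulosa markers in stromal-like cells ranged from 378 to 564 CPM, against 6033 to 8556 CPM in granulosa-like cells, and its part in the stromal Nppc counts was not tested. Nppc in hematopoietic-like cells was 1.59, 10.1, 16.3, 0.757 and 2.52 CPM from 1 to 12 UMIs a library, higher than the stromal level in 3 of the 5 libraries. With the 5 and 6 wk libraries alone the change was 4.67 and did not pass (adjusted p = 0.153).

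**Figure D1:**
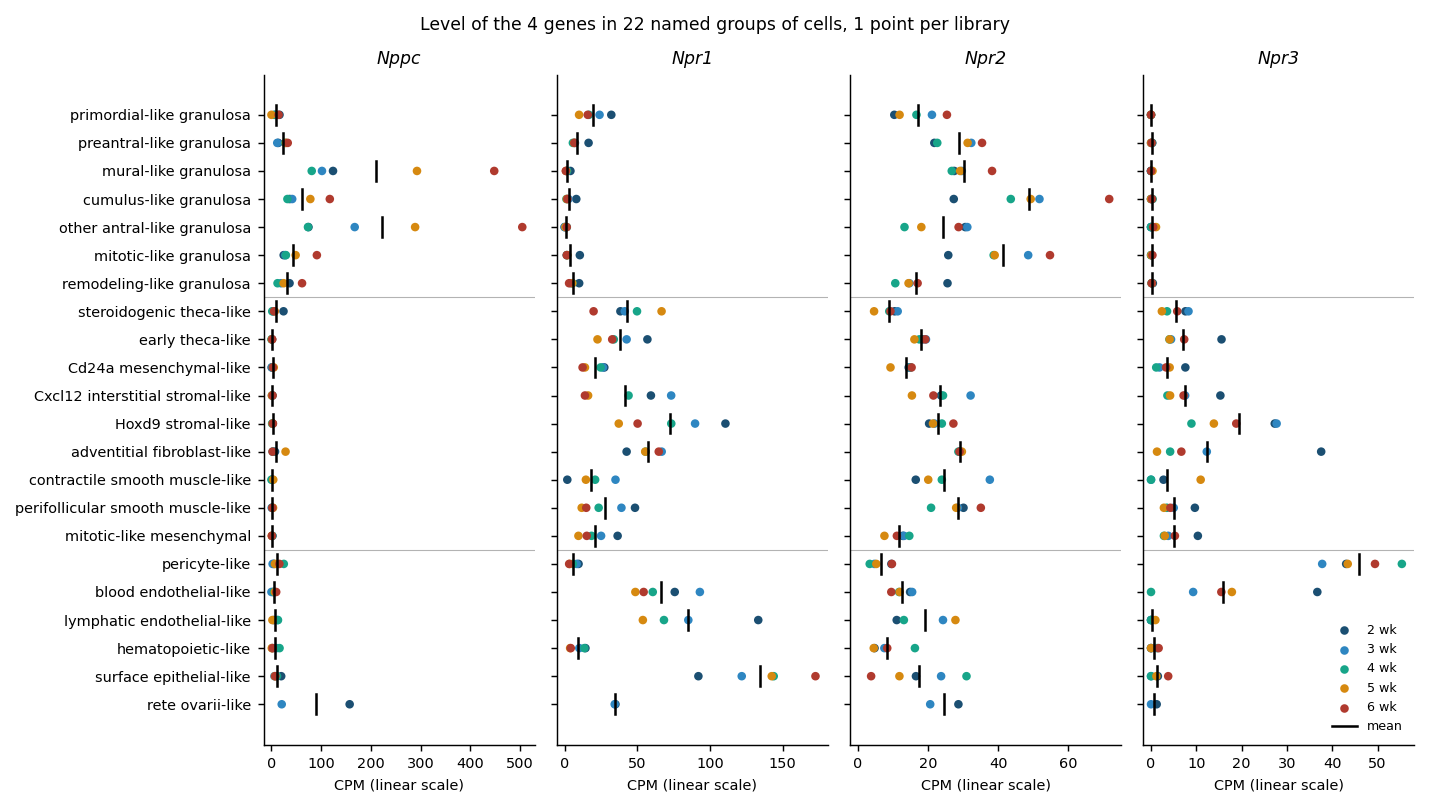
Level of each gene (x axis, CPM, linear, a scale of its own per gene) in 22 named groups of cells (y axis), with 1 point per library coloured by age and a black line at the mean over libraries. Nppc points beyond 150 CPM lie in mural-like and other antral-like granulosa cells and in the 2 wk rete ovarii-like cells. By mean, Npr1 is highest in surface epithelial-like cells, Npr2 in cumulus-like granulosa cells, and Npr3 in pericyte-like cells.

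Within granulosa cells the antral-like clusters held most of the ligand. Antral-like cells were 6.503% of all cells and held 48.9% of all Nppc UMIs. The mural-like cluster, led by Inhba, Cyp11a1, Lhcgr and Cyp19a1, had 123.8, 101.6, 81.0, 292.6 and 447.8 CPM from 2 to 6 wk. Another antral-like cluster, led by Frzb and carrying too few markers of either side to be called mural-like or cumulus-like, had 74.4, 167.3, 73.5, 288.8 and 504.2 CPM. These clusters stood first and second in the order of mean levels, and the Frzb-led cluster was higher in 2 of the 5 libraries, so their order was not settled. The rete ovarii-like cells came next by a mean of 2 libraries. Cumulus-like cells followed with 36.7, 41.7, 32.1, 78.2 and 117.3 CPM, above mitotic-like granulosa cells in 5 of 5 libraries. Mitotic-like cells had between 24.6 and 91.3 CPM, remodeling-like cells between 12.3 and 61.5 CPM, and preantral-like cells between 11.7 and 32.8 CPM, and neighbours among these 3 did not differ beyond their spread. Preantral-like cells were above the next group, the pericyte-like cells, in 5 of 5 libraries. Primordial-like granulosa cells had 16.2, 5.71, 7.60, 0 and 14.3 CPM from at most 56 UMIs a library. At 2000 UMIs per cell 2.13% of them had an Nppc UMI.

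Outside granulosa cells Nppc had higher values in a few groups and libraries. The rete ovarii-like cells, an epithelial remnant at the ovarian hilum, had 157.2 CPM at 2 wk from 126 UMIs in 53 cells, and 22.6% of those cells had a UMI. At 3 wk the value was 20.7 CPM from 6 UMIs in 31 cells, and the other libraries had too few such cells to give a value. The granulosa markers summed to 1130 CPM in the 2 wk rete ovarii-like cells. Steroidogenic theca-like cells had 24.2 CPM at 2 wk and between 1.63 and 6.72 CPM at the later ages. Adventitial fibroblast-like cells had 28.4 CPM at 5 wk and between 2.23 and 7.22 CPM in the other libraries. Pericyte-like cells had 4.79, 2.36, 24.9, 7.04 and 15.96 CPM from 2 to 6 wk, with 2 to 41 UMIs a library. The high values of the first 3 groups rest on 1 library each and were not tested. Hematopoietic-like cells, the rough reference for background, had between 0.757 and 16.3 CPM. By mean level, pericyte-like, adventitial fibroblast-like and steroidogenic theca-like cells did not differ beyond their spread from the next group in the order. The part of free RNA in these values was not tested.

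Within the antral-like clusters the ligand and its receptor were highest in different places. The mural-like cluster had more Nppc, and the cumulus-like cluster had more Npr2 in 4 of 5 libraries. The 10 leading genes of the cumulus-like cluster held the mitotic genes Ccnb2 and Cenpa and no cumulus marker. Nppc was higher in mural-like cells in 5 of 5 libraries, with ratios of 3.37, 2.43, 2.52, 3.74 and 3.82 from 2 to 6 wk. Its log2 fold change was 1.64 ± 0.10 (SE, n = 5 libraries, edgeR adjusted p = 1.56e-07). In this comparison 29.7% of 11108 genes passed the test, and 14.1% were higher in mural-like cells. The call was lost without the library as a block (1.73, adjusted p = 0.0791) and the difference shrank to 0.87 (adjusted p = 0.0456) when antral-like cells were instead split at the median of a per-cell score of the cumulus and mural marker lists.

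Npr2, the receptor that turns CNP binding into cGMP, went the other way. Cumulus-like cells had 27.4, 51.8, 43.6, 49.3 and 71.7 CPM from 2 to 6 wk, and mural-like cells 27.5, 29.7, 26.8, 29.2 and 38.3 CPM. The levels were equal at 2 wk, and cumulus-like cells were the higher in the other 4 libraries, where the ratio of mural-like to cumulus-like cells was 0.572, 0.614, 0.592 and 0.534. At 2 wk the ratio was 1.005 with a counting interval of 0.679 to 1.51. The log2 fold change was -0.72 ± 0.13 (SE, n = 5 libraries, edgeR adjusted p = 0.000781), and 15.6% of the genes tested were higher in cumulus-like cells. The call was lost without the library block (adjusted p = 0.0624), with the 2, 3 and 4 wk libraries alone (-0.55, adjusted p = 0.0845) and with cells thinned to 2000 UMIs (-0.65, adjusted p = 0.08001).

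**Figure D2:**
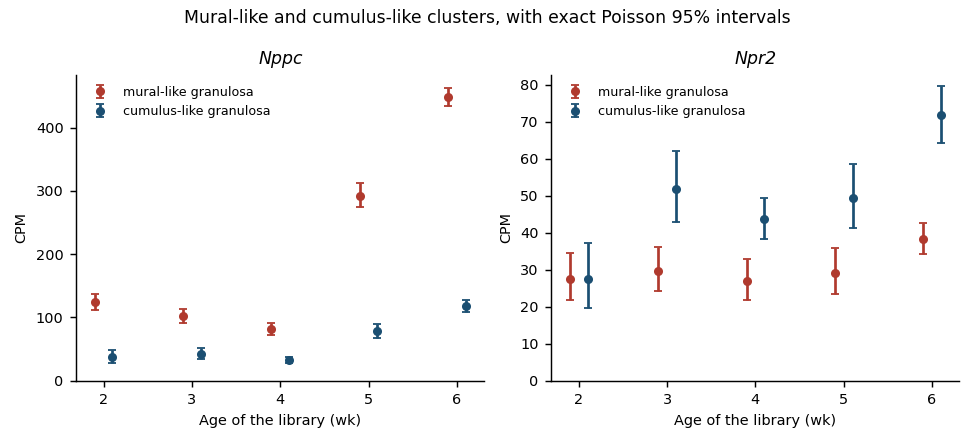
Level of Nppc and Npr2 (y axes, CPM) in the mural-like and cumulus-like clusters of each library (x axis, age in wk); points are library values and bars exact Poisson 95% intervals of the UMI counts. Nppc is higher in the mural-like cluster at every age, and Npr2 is higher in the cumulus-like cluster at 3 to 6 wk and equal at 2 wk.

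The same order appeared in shares of cells at equal depth. When each cell was thinned to 2000 UMIs, 28.9% of 1347 mural-like cells and 9.61% of 874 cumulus-like cells kept an Nppc UMI, against 0.246% of 407 hematopoietic-like cells. Without thinning the shares were 66.1%, 43.1% and 2.83%, at median depths of 15214, 18337.5 and 6699 UMIs per cell. For Npr2 the thinned shares were 5.57% of mural-like cells (exact 95% interval 4.40 to 6.93), 8.58% of cumulus-like cells (6.81 to 10.6) and 0.737% of hematopoietic-like cells. Before thinning they were 34.9%, 51.5% and 4.24%. The shares pool cells of 5 libraries with unlike mixes of ages and were not tested. Before thinning, 459 of 1391 mural-like cells came from 6 wk, where Nppc was highest. Of 882 cumulus-like cells, 342 came from 4 wk, where it was lowest. The part of this mix in the shares was not tested, and the intervals leave out differences between libraries.

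The other receptors were scarce on both sides. Npr1 had between 0.830 and 3.98 CPM in mural-like cells and between 1.24 and 8.01 CPM in cumulus-like cells, from 3 to 12 UMIs a library. Its log2 fold change was -0.70 ± 0.39 (SE, 95% interval -1.53 to 0.14, n = 5 libraries, edgeR adjusted p = 0.199), and the thinned shares, 0.223% and 0.229%, were below the 1.72% of hematopoietic-like cells. Npr3 had 1 UMI in mural-like cells and 3 UMIs in cumulus-like cells over all 5 libraries and did not enter the test.

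The marker genes bear on how far these clusters match their names. The 5 mural markers summed to 599, 148, 61.5, 407 and 293 CPM in the mural-like cluster from 2 to 6 wk, against 216, 99.7, 44.3, 138 and 93.1 CPM in the cumulus-like cluster. The 7 cumulus markers summed to between 894 and 1728 CPM in the cumulus-like cluster and between 388 and 1274 CPM in the mural-like cluster. Among the cumulus markers, the amino acid transporters Slc38a3 and Slc38a5, the hormone gene Amh and the glycolytic gene Pfkp had higher mean levels in the cumulus-like than in the mural-like cluster. Sqle had a similar level, and Egfr had a lower one. The lowest library values of Slc38a5 and Slc38a3 were 16.7 and 9.35 CPM in the cumulus-like cluster. In the mural-like cluster they were 18.5 and 10.1 CPM, so the higher means of these transporters did not hold in every library. Against preantral-like cells, the cumulus-like cluster had less Amh (640 against 819 CPM) and similar Slc38a3 (43.4 against 38.3 CPM). Slc38a5 (341 against 27.5 CPM) and Pfkp (29.0 against 9.38 CPM) were higher than in preantral-like cells. Lhcgr, the luteinizing hormone receptor, ranged from 0 to 79.2 CPM in the mural-like cluster. The mural marker Kitl had means of 132 CPM in the mural-like and 86.5 CPM in the cumulus-like cluster, and 148 CPM in preantral-like cells. The other mural markers had lower means in preantral-like cells than in the mural-like cluster.

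Among the antral-like clusters, cycling cells, counted by UMIs of the mitotic list, were most frequent in the cumulus-like cluster. Its leading genes included the cell cycle genes Hist1h2bc, Ccnb2, Cenpa and Cdkn3, and 758 of its 882 cells (85.9%) had at least 3 UMIs over the 8 genes of the mitotic list, against 448 of 1391 mural-like cells (32.2%). The comparison was therefore repeated within each kind of cell, a split chosen after the data were seen. Among cycling cells the log2 fold change of mural-like over cumulus-like cells was 1.504 ± 0.10 (SE, n = 5 libraries, edgeR adjusted p = 7.90e-10) for Nppc and -0.66 ± 0.13 (adjusted p = 0.00141) for Npr2. Among the remaining cells, of which only the 4, 5 and 6 wk libraries had 20 or more on both sides, the changes were 2.13 ± 0.19 (adjusted p = 4.95e-10) and -1.10 ± 0.24 (adjusted p = 0.00188). Both genes thus differed in the same direction above and below that cut. The cut was on raw UMIs, so it also sorts cells by depth. The cumulus-like side below it was 61, 27 and 21 cells, with 14 to 40 Npr2 UMIs a library. The split therefore does not set the cell cycle aside. Mitotic-like granulosa cells, a separate set of clusters in which 95.6% of cells were cycling by this count, had 25.8, 48.6, 38.8, 39.0 and 54.8 CPM of Npr2, above mural-like cells in 4 of 5 libraries and below cumulus-like cells in 5 of 5.

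**Figure D3:**
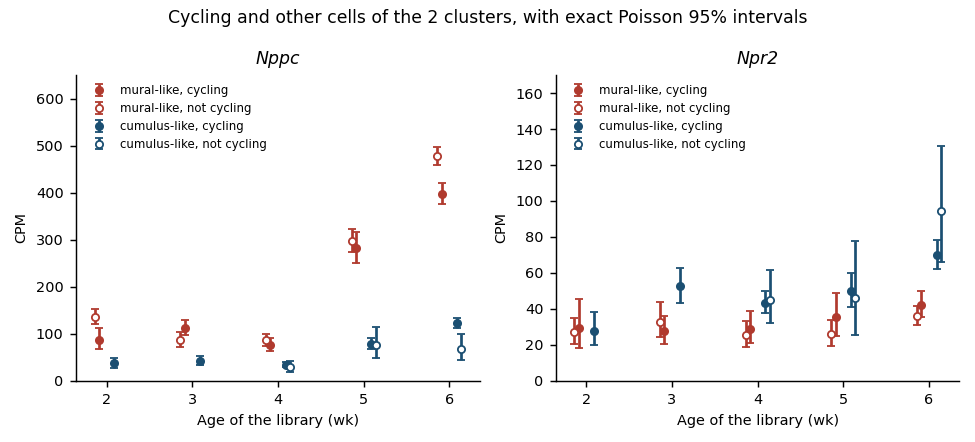
Level of Nppc and Npr2 (y axes, CPM) by age (x axis, wk) in cycling cells (filled points, at least 3 UMIs over the mitotic list) and other cells (open points) of the mural-like and cumulus-like clusters, with exact Poisson 95% intervals. Groups under 20 cells are left out, which removes the other cells of the cumulus-like cluster at 2 and 3 wk; in cycling cells Nppc is higher in the mural-like cluster at each age.

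Antral-like cells had more of the ligand than cells of the clusters named preantral-like. An unnamed cluster of 2585 cells led by Gldn was left out. Its mean preantral marker z-score of 1.22 was above the 1.03 and 1.07 of the named preantral-like clusters. The Nppc, Npr1 and Npr2 levels of that cluster are given under Other observations. Antral-like cells, all 3 clusters together, had 91.3, 84.0, 57.9, 217.5 and 370.2 CPM of Nppc, and preantral-like cells had 13.7, 11.7, 27.9, 29.1 and 32.8 CPM. Every antral-like value was above every preantral-like value. The log2 fold change was 2.63 ± 0.33 (SE, n = 5 libraries, edgeR adjusted p = 0.00236), in a comparison where 35.3% of 12424 genes passed and 17.7% were higher in antral-like cells. Npr2 was nearly level across the stages, with 27.8, 38.1, 29.8, 33.5 and 45.2 CPM in antral-like cells and 21.8, 32.4, 22.7, 31.3 and 35.4 CPM in preantral-like cells. The difference of 0.28 ± 0.09 on the log2 scale passed the test (adjusted p = 0.0320), but it failed in 9 of 15 alternatives, where adjusted p reached 0.444, among them each fit that left out the 2, 3, 4 or 6 wk library (0.23 to 0.28, adjusted p up to 0.109).

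Npr1 was lower at the later stage. The unnamed Gldn-led cluster was left out here as well. Primordial-like cells had 32.1, 24.0, 16.7, 9.93 and 15.9 CPM from 2 to 6 wk, preantral-like cells 16.5, 7.10, 5.67, 6.61 and 6.69 CPM, and antral-like cells 4.87, 1.81, 1.44, 1.07 and 1.27 CPM. The antral-like over preantral-like change was -2.11 ± 0.20 on the log2 scale (SE, n = 5 libraries, edgeR adjusted p = 5.6e-05), and 17.6% of genes were higher in preantral-like cells. Thinned shares of cells with an Npr1 UMI were 5.79% in primordial-like, 1.72% in preantral-like and 0.228% in antral-like cells. The share of hematopoietic-like cells was 1.72% (7 of 407 cells), a rough reference that is not a floor for Npr1. Unthinned, the shares were 22.7%, 12.7%, 2.46% and 5.05%, at median depths of 10258, 15107, 14908 and 6699 UMIs per cell.

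Remodeling-like granulosa cells had less ligand and less of its receptor than antral-like cells. Nppc was 36.4, 19.2, 12.3, 24.5 and 61.5 CPM in remodeling-like cells, 0.398, 0.229, 0.212, 0.113 and 0.166 times the antral-like level. The log2 fold change was -2.27 ± 0.22 (SE, n = 5 libraries, edgeR adjusted p = 0.000193), where 34.1% of 13045 genes passed and 15.6% were higher in antral-like cells. Npr2 was 25.6, 14.7, 10.7, 14.5 and 17.1 CPM in remodeling-like cells. The ratio to antral-like cells was 0.921 at 2 wk and between 0.358 and 0.432 in the other 4 libraries, and the log2 fold change was -1.10 ± 0.18 (adjusted p = 0.00228). With the 2, 3 and 4 wk libraries alone it was -0.97 (adjusted p = 0.0598).

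The remodeling-like clusters were not alike, and their mix differed between ages. The Lox-led cluster had 1, 23 and 322 cells at 2, 3 and 6 wk, and the S100a6-led cluster 6, 18 and 335. The largest cluster, led by Cda and Vpreb3, had a mean of 40.3 CPM of Nppc and 19.97 CPM of Npr2. The cluster led by Rapgef5 and Pamr1 had 10.99 and 14.7 CPM. Without the Cda and Vpreb3 cluster, left out after the data were seen, the changes against antral-like cells grew to -3.01 for Nppc and -1.55 for Npr2. Npr1 was the member that was higher in remodeling-like cells, with 9.99, 4.33, 5.42, 5.24 and 3.06 CPM and a log2 fold change of 1.59 ± 0.22 (adjusted p = 0.000600), where 18.5% of genes were higher in remodeling-like cells. Its level differed between these clusters, with a mean of 21.1 CPM in the Rapgef5 cluster and 2.00 CPM in the Cda and Vpreb3 cluster. The Rapgef5 cluster had a mean marker z-score of 1.02 on the remodeling list and 0.968 on the primordial list. Primordial-like cells had a mean of 19.7 CPM of Npr1. The part of the Rapgef5 cluster in the Npr1 difference from antral-like cells was not tested. The thinned share of remodeling-like cells with an Npr1 UMI, 1.19%, was below that of hematopoietic-like cells, which is no floor for this gene.

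**Figure D4:**
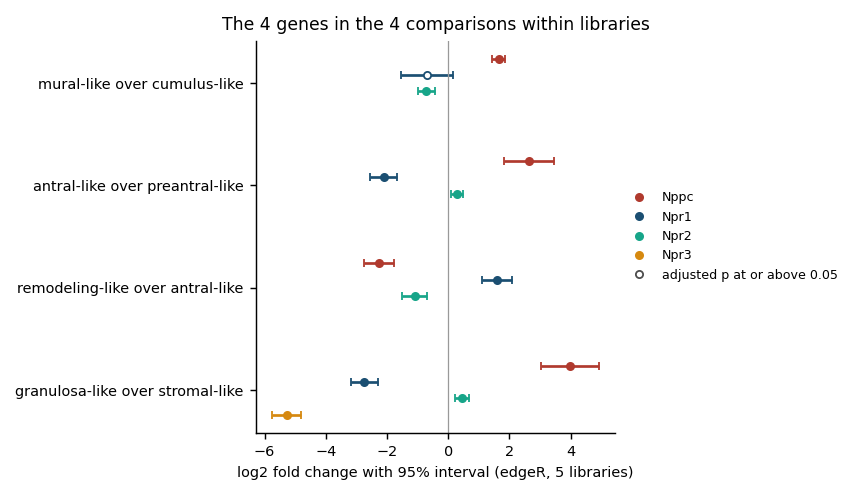
Log2 fold change (x axis) of each gene in the 4 comparisons (y axis, first group over second), with 95% intervals from the edgeR fit to 5 libraries; the open point did not pass an adjusted p of 0.05, and genes too low to test are not drawn. Nppc lies at 1.64 and 2.63 in the first 2 comparisons and at -2.27 in remodeling-like over antral-like cells, and Npr3 lies at -5.28 in granulosa-like over stromal-like cells.

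Npr2 was the most widely spread receptor. Granulosa-like cells held 59.1% of its 15030 UMIs, stromal-like cells 20.7% and smooth muscle-like cells 9.36%. Levels in granulosa-like cells were 22.4, 35.0, 24.7, 26.5 and 37.8 CPM, against 19.1, 20.5, 19.7, 15.9 and 21.1 CPM in stromal-like cells. Granulosa-like cells were the higher within each library, by ratios from 1.17 to 1.79, and the log2 fold change was 0.45 ± 0.10 (SE, n = 5 libraries, edgeR adjusted p = 0.00449). With the 2, 3 and 4 wk libraries alone it was 0.32 (adjusted p = 0.0824). Smooth muscle-like cells had 30.6, 35.3, 30.5, 39.1 and 38.2 CPM, and adventitial fibroblast-like cells kept between 28.7 and 29.7 CPM at every age. Steroidogenic theca-like, hematopoietic-like and pericyte-like cells stood last, with means of 8.96, 8.31 and 6.54 CPM. In the order of the 22 groups, cumulus-like cells were above mitotic-like granulosa cells in 5 of 5 libraries, and from the second place down to the mitotic-like mesenchymal cells neighbours did not differ beyond their spread, apart from perifollicular smooth muscle-like above rete ovarii-like cells in the 2 libraries that had both.

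Npr1, the receptor of the atrial peptide, was found mainly outside granulosa cells. Stromal-like cells held 51.7% of its 12946 UMIs, theca-like cells 10.2% and granulosa-like cells 16.3%. Its levels were 60.2, 50.7, 39.7, 22.3 and 26.4 CPM in stromal-like cells and 17.2, 6.82, 4.57, 4.24 and 3.70 CPM in granulosa-like cells from 2 to 6 wk. All stromal-like values lay above all granulosa-like values, and the log2 fold change of granulosa-like over stromal-like cells was -2.74 ± 0.19 (SE, n = 5 libraries, edgeR adjusted p = 2.29e-05), with 32.9% of genes higher in stromal-like cells. The stromal marker list summed to 114 CPM in granulosa-like cells at 2 wk and to between 56.1 and 85.0 CPM at the other ages.

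Surface epithelial-like cells, which cover the ovary, had the highest mean Npr1, with 92.0, 121.8, 143.8, 142.4 and 172.5 CPM. At 2 wk lymphatic endothelial-like and Hoxd9 stromal-like cells were higher. Lymphatic endothelial-like cells had 133, 85.0, 68.3 and 53.8 CPM at 2, 3, 4 and 5 wk, with too few cells for a value at 6 wk, and blood endothelial-like cells 75.7, 93.0, 60.6, 48.6 and 54.3 CPM. Among stromal subgroups the Hoxd9 stromal-like cells led with 110.6, 89.7, 73.3, 37.2 and 50.2 CPM and held 19.0% of all Npr1 UMIs. Steroidogenic theca-like cells had 38.3, 41.4, 49.8, 66.6 and 19.9 CPM. None of the first 7 groups in the order differed from its neighbour beyond its spread. At 2000 UMIs per cell, 23.6% of surface epithelial-like cells, 15.3% of Hoxd9 stromal-like cells and 1.72% of hematopoietic-like cells had an Npr1 UMI. The unthinned shares were 65.2%, 40.6% and 5.05%.

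Npr3, the clearance receptor, was the scarcest of the 4 genes in number of molecules, with 2465 UMIs, and it was close to absent from granulosa cells. Stromal-like cells held 61.6% of its UMIs and pericyte-like cells, the contractile cells around small vessels, held 13.6% from 858 cells. Pericyte-like cells had 43.1, 37.8, 55.4, 43.4 and 49.4 CPM from 2 to 6 wk, above the next group in 5 of 5 libraries. That group, the Hoxd9 stromal-like cells, had 27.3, 27.7, 8.92, 13.9 and 18.8 CPM, and its difference from the blood endothelial-like cells was within their spread. Blood endothelial-like cells had 36.7 CPM at 2 wk, 9.30 CPM at 3 wk, none in 99 cells at 4 wk, and 17.8 and 15.5 CPM at 5 and 6 wk. Lymphatic endothelial-like cells had 1 UMI in all.

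Granulosa-like cells held 66 Npr3 UMIs in 18632 cells, with between 0.148 and 0.397 CPM a library, against 16.4, 9.70, 3.84, 4.54 and 7.54 CPM in stromal-like cells. The log2 fold change of granulosa-like over stromal-like cells was -5.28 ± 0.20 (SE, n = 5 libraries, edgeR adjusted p = 6.63e-07). The share of cells with an Npr3 UMI was 0.322% in granulosa-like cells, whose median depth was 14790 UMIs. It was 0.606% (3 of 495 cells) in the shallower hematopoietic-like cells (6699), so the granulosa value did not stand above this rough reference. Granulosa-like cells include an unnamed cluster of 480 cells with 52.3% doublet calls, led by Col1a2, Col1a1 and Dcn. The part of that cluster in the granulosa Npr3 count was not tested. The 661 primordial-like granulosa cells had no Npr3 UMI, and 8 of 3132 antral-like cells had one (0.255%). At 2000 UMIs per cell, 8.40% of pericyte-like cells and 4.40% of Hoxd9 stromal-like cells had a UMI.

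The 3 receptors thus held different places. Only Npr2 had a share of antral-like cells above that of hematopoietic-like cells, 5.66% against 0.737% at 2000 UMIs per cell. For Npr1 the hematopoietic-like share was 1.72%, above the 0.656% of pericyte-like cells, so it marks no floor. Across the 95 named groups by library with 50 cells or more, the correlation of log2(CPM + 1) between Nppc and the receptors was -0.63 for Npr1, 0.37 for Npr2 and -0.48 for Npr3. Npr1 and Npr3 had a correlation of 0.46. The points share 5 libraries and are not independent, so these values describe the pattern only.

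The levels moved with age in different ways, described here without a test because each age had 1 library. Nppc in mural-like cells at 6 wk was 3.62 times the 2 wk level (counting interval 3.24 to 4.05) and at 5 wk 3.61 times the 4 wk level. Between 2 and 4 wk the level was lower at each later age, with 4 wk at 0.654 times the 2 wk level. Cumulus-like cells followed, at 3.20 times from 2 to 6 wk and 2.44 times from 4 to 5 wk, and so did the Frzb-led cluster at 6.78 and 3.93 times. In remodeling-like cells, whose mix of clusters differed between 2 and 6 wk, the ratios were 1.69 (1.45 to 1.99) and 2.00 (1.72 to 2.32). In stromal-like cells the 6 wk level was 0.932 times the 2 wk level (0.691 to 1.252), and the 5 wk level was 2.17 times the 4 wk level (1.54 to 3.101). Without integration the mural-like group had 16, 9 and 5 cells at 2, 3 and 4 wk, and 241 and 632 at 5 and 6 wk. The mural-like ratios to earlier ages therefore may not follow 1 kind of cell. The step between 4 and 5 wk falls on the change of Cell Ranger version, and the contributions of age and counting cannot be told apart. Counting intervals cover counting error only, not differences between mice.

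Npr2 differed less between ages. In cumulus-like cells the 6 wk level was 2.62 times the 2 wk level (counting interval 1.89 to 3.72), with the 3 wk level already at 1.89 times, and in mural-like cells it was 1.39 times (1.08 to 1.81). Mitotic-like granulosa cells were at 2.12 times and stromal-like cells at 1.10 times. In remodeling-like cells Npr2 at 6 wk was 0.667 times its 2 wk level. The Lox-led and S100a6-led clusters of that group had 1 and 6 cells at 2 wk and 322 and 335 at 6 wk. The part of this mix in the ratio was not tested.

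Npr1 differed between ages in both directions. At 6 wk it stood at 0.440 times the 2 wk level in stromal-like cells (0.664 when libraries were merged without integration), 0.215 times in granulosa-like cells, 0.406 times in preantral-like cells and 0.454 times in Hoxd9 stromal-like cells. The stages within granulosa-like cells differed, with 281 primordial-like and 299 antral-like cells at 2 wk and 51 and 945 at 6 wk. The part of this mix in the ratio of 0.215 was not tested. In the opposite direction, surface epithelial-like cells stood at 1.88 times (1.41 to 2.48). Adventitial fibroblast-like cells had 42.6 CPM at 2 wk and 64.7 CPM at 6 wk, the latter from 44 cells, but their highest level was 66.7 CPM at 3 wk. Theca-like cells, the androgen-producing cells of the follicle wall and interstitium, had 32.9, 40.5, 53.3, 69.0 and 20.7 CPM and were highest at 5 wk. The 5 theca markers also had their highest summed level in the 5 wk theca-like cells, 10128 CPM, against 1019 to 3548 CPM in the other libraries, and the part of this in the Npr1 level was not tested. Npr3 in stromal-like cells was 0.234 times its 2 wk level at 4 wk and stood at 0.459 times at 6 wk, while in pericyte-like cells the 6 wk level was 1.15 times (0.829 to 1.61) the 2 wk level.

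**Figure D5:**
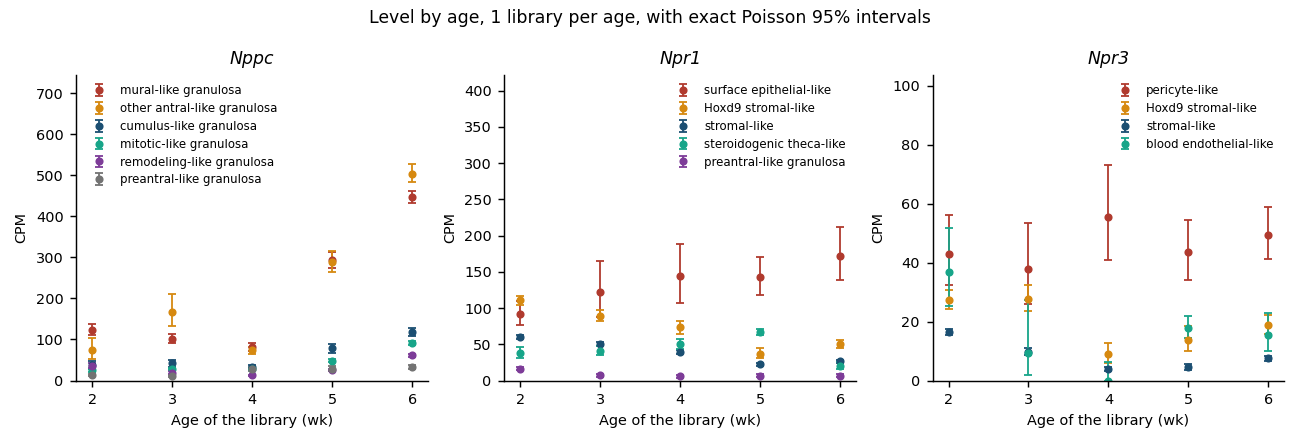
Level (y axes, CPM) of Nppc in granulosa groups, Npr1 in epithelial, stromal, theca and preantral-like cells, and Npr3 in pericyte-like, stromal and endothelial cells against age (x axis, wk), 1 library per age, with exact Poisson 95% intervals. Nppc is highest at 6 wk in both top clusters (447.8 and 504.2 CPM), Npr1 is 60.2 CPM at 2 wk and 26.4 CPM at 6 wk in stromal-like cells and 92.0 and 172.5 CPM in surface epithelial-like cells, and Npr3 in pericyte-like cells stays between 37.8 and 55.4 CPM.

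Besides the 4 genes, 30 genes of the same pathway were counted in each comparison. The other ligands were nearly missing: Nppa (atrial peptide) had 44 UMIs in all cells together, Nppb (B-type peptide) 1 and Ostn (osteocrin, which competes for NPR3) 25. In mural-like against cumulus-like cells 12 of the 30 were abundant enough to test, 3 were higher and 3 lower, in a comparison where 14.1% of all genes were higher and 15.6% lower, with a median log2 fold change of 0.07 beside 0.02 over all genes tested. The phosphodiesterases Pde1a (1.399, adjusted p = 0.000779) and Pde10a (1.93, adjusted p = 0.00409), which break down cyclic nucleotides, were higher in mural-like cells. Gja1, the connexin of granulosa gap junctions, was also higher there (0.51, adjusted p = 0.0347), at 2045 against 1452 CPM. Furin, the protease that cuts the CNP precursor (-0.55, adjusted p = 0.00727, but 0.042 with adjusted p = 0.846 in merged libraries at 5 and 6 wk), Ide, a peptide-degrading protease (-0.33, adjusted p = 0.0291), and Impdh2, an enzyme of GTP synthesis (-0.55, adjusted p = 0.000246), were higher in cumulus-like cells. The Gja1 and Ide calls were each lost without the 5 wk library (adjusted p = 0.0509 and 0.146) and without the 6 wk library (0.123 and 0.126).

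Between antral-like and preantral-like cells 17 of the 30 genes were tested, with 6 higher, 3 lower and a median of -0.16 beside -0.01 over all genes. Over all genes tested, 17.7% were higher and 17.6% lower in antral-like cells. Those higher in antral-like cells were the phosphodiesterases Pde1a (1.07, but -0.017 with adjusted p = 0.976 when libraries were merged without integration), Pde5a (1.80), Pde9a (2.26) and Pde11a (1.60, adjusted p = 0.0519 without the 4 wk library), the GTP synthesis gene Impdh1 (0.70) and Gja1 (1.36, adjusted p = 6.57e-06). Lower were both subunits of soluble guanylyl cyclase, the nitric oxide receptor that also makes cGMP: Gucy1a1 (-1.31, adjusted p = 0.00165) and Gucy1b1 (-1.32, adjusted p = 0.00142). Gja4, the connexin of the oocyte surface and of vessels, was lower as well (-0.92, adjusted p = 0.0367), from 0.893 and 1.67 CPM, a call lost without the 3, 4, 5 or 6 wk library (adjusted p up to 0.121).

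Remodeling-like against antral-like cells gave the reverse for several of these. Of 20 genes tested, 8 were higher and 4 lower, where 18.5% of all genes were higher and 15.6% lower, with a median of 0.31 beside 0.01 over all genes. Gucy1a1 (0.52), Gucy1b1 (0.69) and the receptor-type cyclase Gucy2g (4.53, at 2.32 against 0.114 CPM) were higher, as were Furin (0.62), the cGMP kinase substrate Vasp (0.56), Pde1a (0.58), Pde5a (1.02) and Pde10a (1.04). Gja1 (-0.65, adjusted p = 0.000185), Impdh1 (-0.65), Pde9a (-2.15) and Pde11a (-1.47) were lower. The Vasp call was lost without the 4 or 5 wk library, Pde1a without 4 or 6 wk, Pde5a without 4, 5 or 6 wk, Pde10a without 3 or 6 wk and Pde11a without 3 or 4 wk, with adjusted p up to 0.120. This comparison and the one before it share the antral-like cells, so their values are not independent.

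Most of the pathway genes tested were lower in granulosa-like than in stromal-like cells. Between granulosa-like and stromal-like cells 27 of the 30 genes were tested, 6 were higher and 17 lower in granulosa-like cells, where 35.2% of all genes were higher and 32.9% lower, and the median was -1.16 beside 0.04 over all genes. Gja1 (2.30), Gja4 (2.06, at 2.63 against 0.467 CPM), Ide (1.07), Impdh1 (0.78), Pde11a (2.74) and the kinase gene Prkg2 (1.02, lost without the 2, 3 or 5 wk library, adjusted p up to 0.0558) were higher in granulosa-like cells. A cluster of 2381 cells counted as granulosa-like had a higher mean marker z-score for germ cells (4.46) than for granulosa cells (1.17). Its part in the Gja4 level was not tested. The cGMP-dependent kinase Prkg1 (-4.13), its substrate gene Mrvi1 (-5.43) and the phosphodiesterases Pde3a (-5.00) and Pde5a (-3.45) were among the lower ones. Pericyte-like cells, the group with the highest Npr3, also had the highest mean Gucy1a1 (562 CPM), Gucy1b1 (356 CPM), Prkg1 (81.5 CPM), Pde3a (247 CPM) and Gja4 (344 CPM) of the 22 groups. Mme, the gene of neprilysin, which degrades natriuretic peptides, was highest in rete ovarii-like cells, at 502 and 633 CPM in the 2 libraries.

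The genes whose levels most resembled each member were taken from 13420 genes over the same 95 points. For Nppc they were Mro (Pearson r = 0.862), Fshr, the receptor of follicle-stimulating hormone (0.861), Hsd17b1 (0.858), Ndufs4 (0.834) and Car14 (0.831), and Hsd17b1 was also a marker used to name antral-like clusters. For Npr1 they were Nfic (0.791), Bace2 (0.789), Ramp2 (0.786), Zfp57 (0.786) and Cgnl1 (0.783). Npr2 had lower values, led by Pomt1 (0.691), Paqr6 (0.666), Swi5 (0.665), Gpsm1 (0.631) and Cbs (0.623). Npr3 was nearest to Tbx2 (0.813), Hoxa4 (0.804), Sparcl1 (0.803), Tbx3 (0.799) and Wtip (0.797), of which all but Sparcl1 were highest in pericyte-like cells. The points share libraries and depth, so the values are descriptions.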

How the data were processed

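The authors aligned reads to the mouse genome (mm10) with Cell Ranger and deposited, per library, a filtered matrix of UMI counts that are not normalized; per the file headers Cell Ranger was 3.1.0 at 2, 3 and 4 wk and 6.0.1 at 5 and 6 wk. All 48163 deposited cells were kept. Doublets were called with Scrublet (scanpy 1.11.5), from 162 to 555 a library, and left out in an alternative only. Counts were integrated with anchors in Seurat 5.3.0, as in the study's methods, using 1991 variable genes (2000 less 9 pathway genes), 30 principal components, 20 neighbours and resolution 1. Clusters were named from marker lists. The scoring limits for names were set after the clusters were seen, with no value of the 4 genes used. Correlated genes did take part in the clustering.

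UMIs were summed per library and group (at least 20 cells) and tested with edgeR 4.0.16 (quasi-likelihood, TMM, filterByExpr, library as block, Benjamini-Hochberg over all genes tested, threshold 0.05) in R 4.3.3; DESeq2 1.42.0 was an alternative. Both groups of a comparison come from the same library, which is why library is the block. The labels do not say that libraries come from separate mice of 1 group, so a p-value measures the spread between 5 libraries of different ages. Intervals have a 95% level (exact Poisson for CPM, exact Clopper-Pearson for shares) and cover counting error only. On simulated data the test recovered 81.8%, 86.9%, 87.9% and 65.3% of genes changed 2-fold in mural-like against cumulus-like (10966 genes), antral-like against preantral-like (12249), remodeling-like against antral-like (12885) and granulosa-like against stromal-like cells (15984). Of genes changed 1.5-fold it recovered 54.5%, 61.5%, 65% and 37.4% in the same order, with 12 to 15 false calls a comparison. Only 96 to 100 genes were changed at each fold. The 14, 12, 15 and 12 false calls stood beside 54, 59, 65 and 37 genes recovered at 1.5-fold and 81, 86, 87 and 64 at 2-fold. False calls were thus not rare among the calls, and far fewer genes were changed than passed in the data.

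Named were the 4 genes, 30 other genes of the pathway by role, and for each of the 4 the 5 genes with the highest Pearson r over groups of at least 50 cells (genes with at least 500 UMIs). The genes and lists were chosen with earlier results of these data known. Sequence and coordinates come from GRCm38 with GENCODE annotation. The value of 1 cumulus marker is not reported here.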

Additional observations from a re-analysis of the deposited data

Results flagged for a closer look

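Dixon's criterion marks a library far from the other 4, which chance meets in about 1 set of 20 for separate sets of replicates. Here the 5 values are different ages and several sets share cells, so that rate does not apply. In 36 sets of 5 library values, 12 held such a library. Of these, 5 concern Npr1 at 2 wk, which stood at 3.98 CPM in mural-like cells (next library 1.69), 8.01 in cumulus-like cells (2.63), 16.5 in preantral-like cells (7.10), 4.87 in antral-like cells (1.81) and 17.2 in all granulosa-like cells (6.82). Npr3 in granulosa-like cells was also highest at 2 wk, at 0.397 CPM (0.212). The stromal markers summed to 114 CPM in the 2 wk granulosa-like cells and to at most 85.0 CPM at other ages, and their part in these values was not tested.

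Npr2 in mural-like cells was 38.3 CPM at 6 wk (next library 29.7). Nppc in stromal-like cells was 4.58 CPM at 5 wk (2.36). Of the ratios within a library, Npr2 in mural-like over cumulus-like cells was 1.005 at 2 wk (next 0.614) and in remodeling-like over antral-like cells 0.921 at 2 wk (0.432). The remodeling-like group held 1 cell of its Lox-led and 6 cells of its S100a6-led cluster at 2 wk. The Npr1 ratio of mural-like to cumulus-like cells was 1.36 at 4 wk (0.631), from 6 and 7 UMIs. The Nppc ratio of granulosa-like to stromal-like cells was 61.3 at 6 wk (14.5).

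Cells of clusters that received no name held 12.3% of the Nppc UMIs, 24.0% of Npr1, 27.3% of Npr2 and 13.8% of Npr3, and 22.5% of all UMIs.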

How the results depend on the processing

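Over the alternatives, 173 values of the 4 genes kept their direction and their side of the threshold, 16 lost the call and 1 changed sign, the uncalled Npr1 difference between mural-like and cumulus-like cells (0.054 with a split by per-cell score). Without the replicate block the numbers of called genes were 674 for mural-like against cumulus-like, 1821 for antral-like against preantral-like and 1020 for remodeling-like against antral-like cells, and the changes were 1.73 for Nppc and -0.72 for Npr2 on the mural side and 0.28 for Npr2 in antral-like cells (adjusted p = 0.305). The mural-like against cumulus-like count was 1870 with DESeq2, 5666 for merged libraries (5 and 6 wk only), 898 with thinned cells, 908 with 2, 3 and 4 wk, 810 without cycling cells and 1918 with cycling cells only; leaving out each library gave 1863 to 3201, lowest without 6 wk. Remodeling-like against antral-like gave 2817 to 4626, with 2910 without 4 wk and 2817 without 5 wk. With 2, 3 and 4 wk only, 1435 genes were called for antral-like against preantral-like and 1193 for remodeling-like against antral-like cells. Npr2 lost its call with 2, 3 and 4 wk only on the mural side (-0.55), in remodeling-like cells (-0.97), in granulosa-like over stromal-like cells (0.32) and in antral-like cells (0.35), and with thinned cells on the mural side (-0.65). In antral-like over preantral-like cells it was also lost with DESeq2 (0.29), with 5 and 6 wk only (0.21), at resolution 0.6 (0.12) and without the 2, 3, 4 or 6 wk library; leaving out each library gave 0.23 to 0.33, the highest without 5 wk, where the call was kept. Nppc in granulosa-like over stromal-like cells was 4.67 with 5 and 6 wk only. Merging reversed Furin between mural-like and cumulus-like (0.042) and Pde1a between antral-like and preantral-like cells (-0.017), and moved the 6 wk over 2 wk ratios of Nppc in antral-like cells to 3.01 and of Npr1 in stromal-like cells to 0.664. The causes were not tested, beyond the fewer libraries, cells or UMIs that some alternatives hold by construction. At resolution 0.6 no mural-like and cumulus-like pair of clusters formed, so that comparison gave no value. The fits by Cell Ranger version, by cycling cells, without the Cda and Vpreb3 cluster and with the Gldn cluster counted as preantral-like were chosen after seeing the data. Depth limits Npr1 in antral-like cells, at 12 UMIs or fewer a library on each side, and Npr3 in all granulosa-like cells.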

Other observations

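Several clusters without a name carried the 4 genes. The largest unnamed granulosa-like cluster, 2585 cells led by Gldn and Hamp2, had mean levels of 11.4 CPM of Nppc, 14.6 CPM of Npr1 and 26.6 CPM of Npr2. An unnamed mesenchymal cluster led by Cnn1 and Tnnt2, contractile genes, had 39.6 CPM of Npr2, and one led by Adamtsl2 had 50.5 CPM of Npr1. Within the Hoxd9 stromal-like cells, the cluster led by Slc26a7 had 30.8 CPM of Npr3 and the one led by Hmga2 had 7.20 CPM, while their Npr1 levels were 81.9 and 62.6 CPM. These differences were not tested.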
